A study of Mus musculus with 6 samples.

Results

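The genes of cholesterol synthesis and its control by the transcription factor SREBP2 were followed in RNA from primary mouse microglia, the resident macrophages of the brain. The set holds 27 genes of the 24340 in the deposited table, chosen by symbol with earlier results of these data known. They are enzymes of the route, the sensors that switch it, a sterol carrier, and 3 lipid genes that SREBP proteins also drive. Of the 27, 26 had a mean of at least 1 FPKM (fragments per kilobase of transcript, scaled to the mapped fragments of the library) over the 6 libraries and were tested among 11412 genes. Lpin1 lay below that level and is given as values. Cells came from brains of C57BL/6 mice less than 3 days old. In 3 libraries (C13) they had received 10 uM of C13, a small molecule that the submitters call a MOK inhibitor, for 1 h and then 1 ug/ml of lipopolysaccharide (LPS, a bacterial membrane component) for 5 h. In the other 3 libraries (vehicle) DMSO took the place of C13, with the same LPS exposure. Every library received LPS, so the comparison asks how LPS-exposed cells differed with C13, and no untreated state was measured. Samples are given as biological replicates, with no word on separate cultures or litters. The p-values therefore cover the spread among the 6 samples alone, part of which may be technical.

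Cholesterol is built from acetyl-CoA in the cytosol and endoplasmic reticulum, through mevalonate and isoprenoid phosphates to squalene, then to lanosterol and on to cholesterol. When sterols in the endoplasmic reticulum fall, the escort protein SCAP carries SREBP2 to the Golgi, where it is cut, and its released part enters the nucleus and switches on most genes of the route. INSIG proteins hold SCAP back when sterols are plentiful. In the brain, cholesterol is made locally, since lipoproteins of the blood hardly cross into it, and astrocytes are a main source of it; in macrophages, LPS is known to reset both synthesis and efflux.

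SREBP2 binds sterol regulatory elements in promoters, usually beside CCAAT boxes bound by NF-Y or GC boxes bound by SP1. RefSeq promoter windows on GRCm38.p6, the patch release of the assembly called mm10, were at hand for 22 of the 27 genes, each 300 bases long with 250 before the gene's start and 50 after it. The 250 upstream bases are shown, 5′ to 3′ on the gene's strand, for the 3 genes with such a window whose difference with C13 had an unadjusted p under 0.05. Capitals mark a sterol regulatory element (TCACNCCAC), CCAAT boxes (CCAAT) and GC boxes (GGGCGG) on either strand, and none of the marked matches overlap.
Hmgcs1, chr13:119690101-119690350, plus strand: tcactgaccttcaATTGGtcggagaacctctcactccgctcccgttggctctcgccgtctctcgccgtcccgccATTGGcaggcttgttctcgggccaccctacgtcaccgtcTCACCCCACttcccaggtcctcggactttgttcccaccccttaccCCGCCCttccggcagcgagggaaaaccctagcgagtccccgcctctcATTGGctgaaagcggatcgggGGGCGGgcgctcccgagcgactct
Msmo1, chr8:64733579-64733828, minus strand: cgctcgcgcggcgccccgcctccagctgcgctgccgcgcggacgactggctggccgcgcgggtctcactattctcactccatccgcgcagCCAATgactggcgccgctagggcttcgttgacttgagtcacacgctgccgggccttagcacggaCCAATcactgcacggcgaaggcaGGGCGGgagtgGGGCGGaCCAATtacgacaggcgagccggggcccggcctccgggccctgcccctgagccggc
Idi1, chr13:8885356-8885605, plus strand: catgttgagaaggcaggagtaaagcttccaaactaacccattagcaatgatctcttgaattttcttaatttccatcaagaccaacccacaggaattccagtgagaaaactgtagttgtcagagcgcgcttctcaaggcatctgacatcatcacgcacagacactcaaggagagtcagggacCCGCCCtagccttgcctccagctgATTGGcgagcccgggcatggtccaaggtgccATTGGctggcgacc

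Of these 3 upstream stretches, the one of Hmgcs1 held a match to TCACNCCAC, from 137 to 129 bases before the start. It also held 3 CCAAT boxes and 2 GC boxes. Other forms of the sterol regulatory element were not searched, so a gene without a match may still hold one. Msmo1 had 3 CCAAT and 2 GC boxes, and Idi1 had 2 CCAAT boxes and 1 GC box. Over the whole windows, 1 of 22 genes of the set held TCACNCCAC, or 4.55%, against 1.44% of 27025 genes with a window. A CCAAT box was found in 18 of 22 (81.8%, against 41.1% of the 27025 genes) and a GC box in 19 of 22 (86.4%, against 38.2%). A gene with several windows counted if any of them matched. The 27025 genes were taken whether expressed here or not. The share among the tested genes was not counted, so these excesses cannot be read as particular to the set. These matches are descriptions of letters and not sites shown to be bound.

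The libraries held an estimated 11120000 to 11510000 fragments with C13 and 8860000 to 10770000 with vehicle, as read from the size of the smallest steps between FPKM values. Vehicle replicate 2 stood apart, in that its correlations with the rest across tested genes had a median of 0.969, against 0.984 to 0.989 for the others. Many of the results that rest on it, or on C13 replicate 2, are also given without that library.

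Most of the set lay a little higher with C13, and no gene of it passed the test. Of the 26 genes tested, 19 had a change above 0, or 73.1%, against 49.9% of all genes tested, and the median change in log2(FPKM + 1) was 0.17, against -0.0003 for all genes. limma called 0 of the 26 higher and 0 lower at a Benjamini-Hochberg adjusted p under 0.05 over all 11412 genes, where the share called was 0% in each direction, and the lowest adjusted p in the set was 0.501, for Msmo1. At an unadjusted p under 0.05, 4 of the 26 were higher (15.4%, against 2.57% of all genes) and 0 were lower (against 4.77%). Every C13 library lay above every vehicle library in 5 of the 26 (19.2%, against 6.83% of all genes), namely Hmgcs1, Idi1, Lss, Msmo1 and Srebf2. Every C13 library lay below every vehicle library in 1, Scap, against 9.78% of all genes. After rescaling each library to TPM, the median change of all genes was 0.13 and that of the set was 0.31, so genes of the set near 0 took the other sign on that scale.

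**Figure D1:**
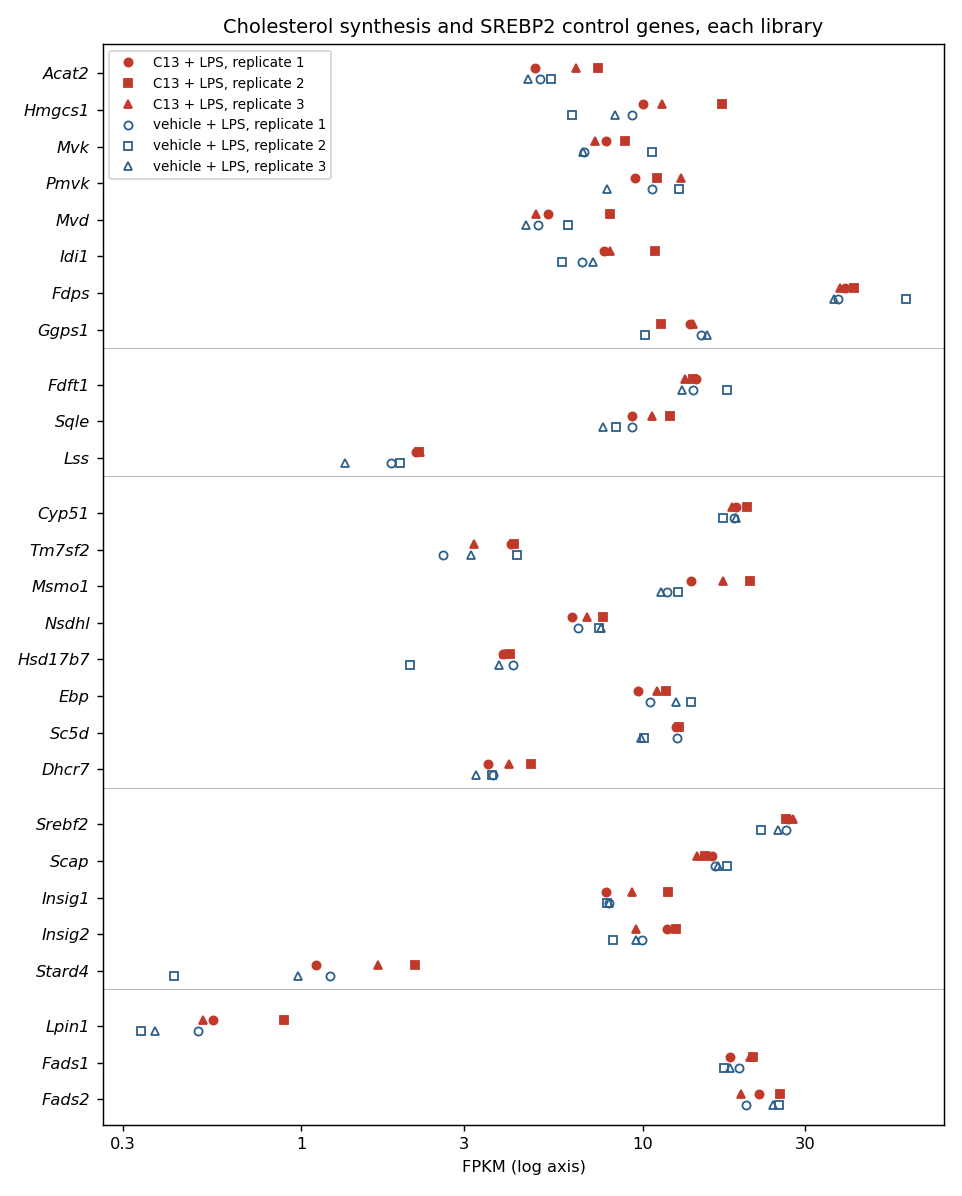
FPKM of each of the 27 genes in each of the 6 libraries on a log axis, C13 libraries as filled red symbols above vehicle libraries as open blue symbols, with the shape giving the replicate. Lines divide the mevalonate steps, the squalene and lanosterol steps, the later steps, the control and transport genes, and the 3 other lipid genes. C13 replicate 2 (red squares) is the highest C13 library in 20 of the 26 tested genes.

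The excess was carried unevenly between libraries. That C13 replicate 2 carried more of it was known beforehand. Its share in the set is therefore a description and not independent evidence. Averaged over the 26 genes, the deviation from the vehicle mean was 0.06, 0.29 and 0.12 in log2(FPKM + 1) in C13 replicates 1, 2 and 3, against 0.02, 0.02 and -0.03 in vehicle replicates 1, 2 and 3. C13 replicate 2 was the highest of the C13 libraries in 20 of 26 genes, or 76.9%, against 30.8% of all genes tested, and in 8 of the 8 enzymes from lanosterol to cholesterol. It lay above all 3 vehicle libraries in 17 of the 26 genes, C13 replicate 3 in 13 and C13 replicate 1 in 6. Over all 11412 genes these counts were 2074 for C13 replicate 2, 2270 for C13 replicate 3 and 2186 for C13 replicate 1, so the share in C13 replicate 1 was near that of all genes. Without C13 replicate 2 the median change was 0.10, 18 genes lay above 0, and the count at an unadjusted p under 0.05 dropped to 1, Msmo1 (3.85%, against 1.24% of all genes). The 5 genes whose groups did not overlap were the same 5 without that library, when 11.0% of all genes lay wholly higher. Without C13 replicate 1 the unadjusted count was 7 (against 1.95% of all genes). Genes whose C13 libraries all lay above the vehicle libraries numbered 12 without C13 replicate 1 (against 10.5% of all genes), 11 without vehicle replicate 1 (against 12.9%) and 8 without vehicle replicate 2 (against 15.3%). Without both C13 replicate 2 and vehicle replicate 2 the unadjusted count was 2 (against 5.28% of all genes), and 8 genes lay wholly higher (against 21.0%).

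Markers of astrocytes were high in the same library. The summed level of 10 astrocyte markers, of which 0 stood at the table's floor in all libraries, was 67.1, 126 and 75.9 FPKM in C13 replicates 1, 2 and 3, against 58.9, 50.2 and 61.9 FPKM in vehicle replicates 1, 2 and 3. All 10 were highest in C13 replicate 2. Gfap, the astrocyte filament gene, had 5.80, 35.6 and 8.79 FPKM in the C13 libraries, against 2.74, 5.18 and 4.74 FPKM in the vehicle libraries. Gja1, a gap junction gene, had 47.2, 52.0 and 50.5 FPKM with C13, against 43.4, 32.3 and 43.8 FPKM with vehicle. Gja1 alone made up most of the summed level in every library except C13 replicate 2. Aldh1l1 had 3.71, 6.01 and 4.43 FPKM with C13, against 3.34, 4.52 and 3.32 FPKM with vehicle. The mean deviation of the 9 tested astrocyte markers was 0.17, 1.26 and 0.36 in C13 replicates 1, 2 and 3, the same order of libraries as in the cholesterol genes. Whether astrocyte RNA has a part in the values of the cholesterol genes was not tested. In bulk RNA a difference in the number of cells of a type and a difference in RNA per cell cannot be told apart.

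**Figure D2:**
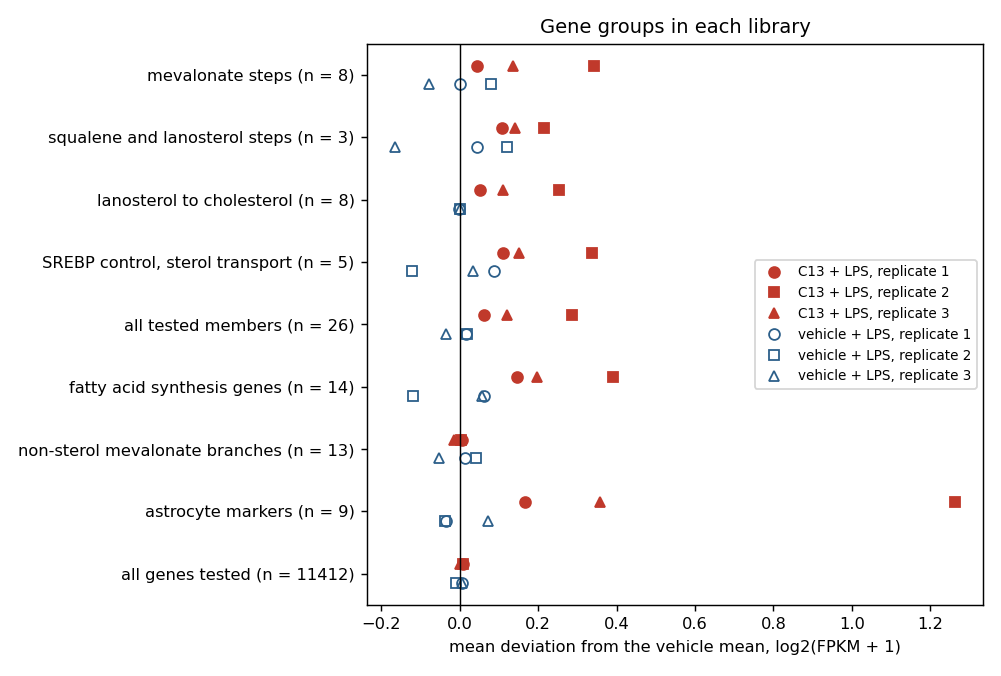
Mean deviation from the vehicle mean in log2(FPKM + 1) for each gene group (rows, with the number of tested genes) in each library, C13 filled and red, vehicle open and blue. C13 replicate 2 stands at 0.29 for all tested members and at 1.26 for the astrocyte markers, while the other C13 libraries stand at 0.06 and 0.12 for the members.

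The cultures held more than microglia by their markers. The sum of 12 microglia and macrophage markers was 2078 to 2232 FPKM in C13 libraries and 2193 to 2938 FPKM in vehicle libraries, with C1qa, C1qb and Cd68 the most abundant. The homeostatic microglia gene Cx3cr1 and the matrix gene Dcn were picked out after their values were seen. Cx3cr1 was low, at 2.08 to 2.59 FPKM with C13 and 1.89 to 3.21 FPKM with vehicle. The sum of 8 fibroblast and mural cell markers, led by Col1a1, Acta2 and Col1a2, was 5029 to 5430 FPKM with C13 and 5295 to 5991 FPKM with vehicle. In that list Dcn was highest in C13 replicate 2, at 165 FPKM, against 80.02 and 104 FPKM in C13 replicates 1 and 3 and 79.6 to 83.4 FPKM with vehicle. The list was mixed, with 4 of its 8 genes highest of all libraries in C13 replicate 2. Acta2, at 1125 FPKM, was lowest of all libraries there, and Pdgfrb had 55.04 FPKM there and 55.05 FPKM in vehicle replicate 2. Among the C13 libraries alone, C13 replicate 2 was highest in 5 of the 8 genes, or 62.5%, against 30.8% of all genes tested. The mean deviation of the 8 genes was -0.07, 0.27 and 0.06 in C13 replicates 1, 2 and 3, and -0.01, -0.03 and 0.04 in the vehicle libraries. The order of the C13 libraries was the same as in the cholesterol genes. It was also the same in the 4 tested oligodendrocyte lineage genes (0.04, 0.14 and 0.10), so it does not single out a cell type. The tested microglia, neuronal and endothelial markers had other orders. Among 11 oligodendrocyte lineage genes the myelin genes Mog and Mobp stood at 0.01 FPKM, the floor of the deposited values, in each library, and Cspg4, Cnp and Pdgfra were the most abundant. Neuronal markers (6 genes, led by Stmn2, Tubb3 and Map2) summed to 82.01 to 92.5 FPKM with C13 and 86.2 to 113 FPKM with vehicle. Most of that sum was Stmn2, at 71.0 to 98.0 FPKM, while Rbfox3, Snap25 and Syt1 lay between 0.01 and 0.065 FPKM, near the floor. Endothelial markers (5 genes, led by Cdh5, Kdr and Tek) summed to 5.38 to 6.19 FPKM with C13 and 4.35 to 7.27 FPKM with vehicle. The part of fibroblasts or other cells in the cholesterol gene values was not tested.

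The first steps run from acetyl-CoA to the isoprenoid farnesyl diphosphate. Of their 8 genes 6 had a change above 0, and the median was 0.14. Hmgcs1 (chr13:119690351-119708260 on mm10, 1-based), which encodes HMG-CoA synthase, had 10.00, 17.1 and 11.4 FPKM in C13 replicates 1, 2 and 3, against 9.33, 6.19 and 8.30 FPKM in vehicle replicates 1, 2 and 3. The groups did not overlap, although C13 replicate 1 and vehicle replicate 1 were close and the widest gap was that of C13 replicate 2 over vehicle replicate 2. The change of Hmgcs1 was 0.61 (SE 0.21, 95% interval 0.11 to 1.11, limma adjusted p = 0.596), the largest of the set with a pseudocount of 1. It was 0.40 without C13 replicate 2 and 0.25 without both C13 replicate 2 and vehicle replicate 2.

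Idi1 (chr13:8885606-8892396), the isomerase that makes both isoprenoid building blocks available, had 7.72, 10.8 and 8.01 FPKM with C13, against 6.64, 5.80 and 7.16 FPKM with vehicle. Its groups did not overlap, and the mean was 8.86 ± 1.73 FPKM with C13 and 6.53 ± 0.690 FPKM with vehicle (SD, n = 3 each). The change was 0.38 (SE 0.15, 95% interval 0.04 to 0.72, limma adjusted p = 0.63), with values of 0.24 without C13 replicate 2, 0.31 without vehicle replicate 2 and 0.17 without both C13 replicate 2 and vehicle replicate 2. Acat2, the cytosolic thiolase that opens the route, had 4.85, 7.41 and 6.37 FPKM with C13, against 5.00, 5.41 and 4.61 FPKM with vehicle. Its C13 replicate 1 lay within the vehicle range and the other C13 libraries above it.

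Mevalonate itself is phosphorylated and decarboxylated by the products of Mvk, Pmvk and Mvd. In each of these genes the group means lay closer than the larger SD of the groups. Mvk averaged 7.99 ± 0.820 FPKM with C13 and 8.02 ± 2.27 FPKM with vehicle, with vehicle replicate 2 the highest library at 10.6 FPKM. Pmvk averaged 11.2 ± 1.71 FPKM with C13 and 10.4 ± 2.46 FPKM with vehicle. Mvd averaged 6.06 ± 1.71 FPKM with C13 and 5.18 ± 0.775 FPKM with vehicle (SD, n = 3 each). In Mvd the difference lay in C13 replicate 2, at 8.02 FPKM, while C13 replicates 1 and 3 had 5.30 and 4.87 FPKM. Fdps, the farnesyl diphosphate synthase gene, was the most abundant of the set, at 39.2, 41.6 and 37.9 FPKM with C13, against 37.3, 59.2 and 36.4 FPKM with vehicle. Vehicle replicate 2 alone lay above the C13 libraries there, and the change of Fdps was -0.12 with all libraries and 0.10 without vehicle replicate 2. Ggps1, which makes the longer isoprenoid used to anchor proteins in membranes, averaged 13.03 ± 1.46 FPKM with C13 and 13.5 ± 2.89 FPKM with vehicle.

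Squalene is formed and closed into lanosterol by 3 enzymes. Sqle (chr15:59315092-59331193), the squalene epoxidase gene and a rate-limiting point of the later route, had 9.310, 11.995 and 10.7 FPKM with C13, against 9.319, 8.35 and 7.66 FPKM with vehicle. The groups overlapped by C13 replicate 1 and vehicle replicate 1 alone, which were nearly equal. The change was 0.30 (SE 0.12, 95% interval 0.02 to 0.58, limma adjusted p = 0.643), with values of 0.22 without C13 replicate 2 and 0.30 without vehicle replicate 2.

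Lss, which encodes lanosterol synthase, had 2.17, 2.21 and 2.22 FPKM with C13, against 1.83, 1.95 and 1.35 FPKM with vehicle. The C13 libraries were nearly equal and lay above every vehicle library, and C13 replicate 2 did not stand out in this gene. The change was 0.25 (SE 0.12, limma adjusted p = 0.742) and 0.25 without C13 replicate 2, but 0.15 without vehicle replicate 3, its lowest library, and 0.10 with a pseudocount of 5. Fdft1, the squalene synthase gene, averaged 13.9 ± 0.569 FPKM with C13 and 14.9 ± 2.45 FPKM with vehicle (SD, n = 3 each). Fdft1 and Lss, like Tm7sf2, Srebf2 and Fads1, share their locus with another row of the table, and how the counting treated strand is not given in the sources used here, so their values may include reads of the partner.

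From lanosterol to cholesterol 8 enzymes of the set were measured, of which 6 had a change above 0, with a median of 0.17. Msmo1 (chr8:64718145-64733578), the methyl sterol oxidase that removes methyl groups from lanosterol's ring, had 13.9, 20.6 and 17.2 FPKM with C13, against 11.8, 12.7 and 11.3 FPKM with vehicle. Every C13 library lay above every vehicle library, with a mean of 17.2 ± 3.35 FPKM with C13 and a narrower 11.96 ± 0.689 FPKM with vehicle (SD, n = 3 each). Its change of 0.48 (SE 0.14, 95% interval 0.14 to 0.81, limma adjusted p = 0.501) had the smallest p of the set. It was 0.35 without C13 replicate 2, 0.52 without vehicle replicate 2 and 0.39 without both.

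Dhcr7, the enzyme of the last step of a branch of the route, had 3.53, 4.71 and 4.07 FPKM with C13, against 3.64, 3.62 and 3.26 FPKM with vehicle, with overlap through C13 replicate 1. Sc5d, a sterol desaturase gene, had 12.5, 12.8 and 12.7 FPKM with C13, against 12.6, 10.1 and 9.91 FPKM with vehicle. Its C13 libraries were nearly equal and vehicle replicate 1 stood with them. Cyp51, the lanosterol demethylase gene, averaged 19.1 ± 1.03 FPKM with C13 and 18.2 ± 0.872 FPKM with vehicle, a change of 0.07 with a 95% interval of -0.14 to 0.27. That change was 0.025 without C13 replicate 2 and 0.028 without vehicle replicate 2. Tm7sf2, a sterol reductase gene, averaged 3.84 ± 0.552 FPKM with C13 and 3.35 ± 0.852 FPKM with vehicle. Hsd17b7, a sterol ketone reductase gene, averaged 3.98 ± 0.0962 FPKM with C13 and 3.35 ± 1.12 FPKM with vehicle (SD, n = 3 each). Vehicle replicate 2, at 2.08 FPKM, set that difference, and without it the change of Hsd17b7 was -0.0013. The sterol dehydrogenase gene Nsdhl (6.91 ± 0.743 FPKM with C13 and 7.16 ± 0.605 FPKM with vehicle) and the sterol isomerase gene Ebp (10.8 ± 1.04 FPKM with C13 and 12.3 ± 1.69 FPKM with vehicle) were those with a change below 0. After rescaling to TPM that of Nsdhl was 0.076, below the median of 0.13 of all genes on that scale.

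**Figure D3:**
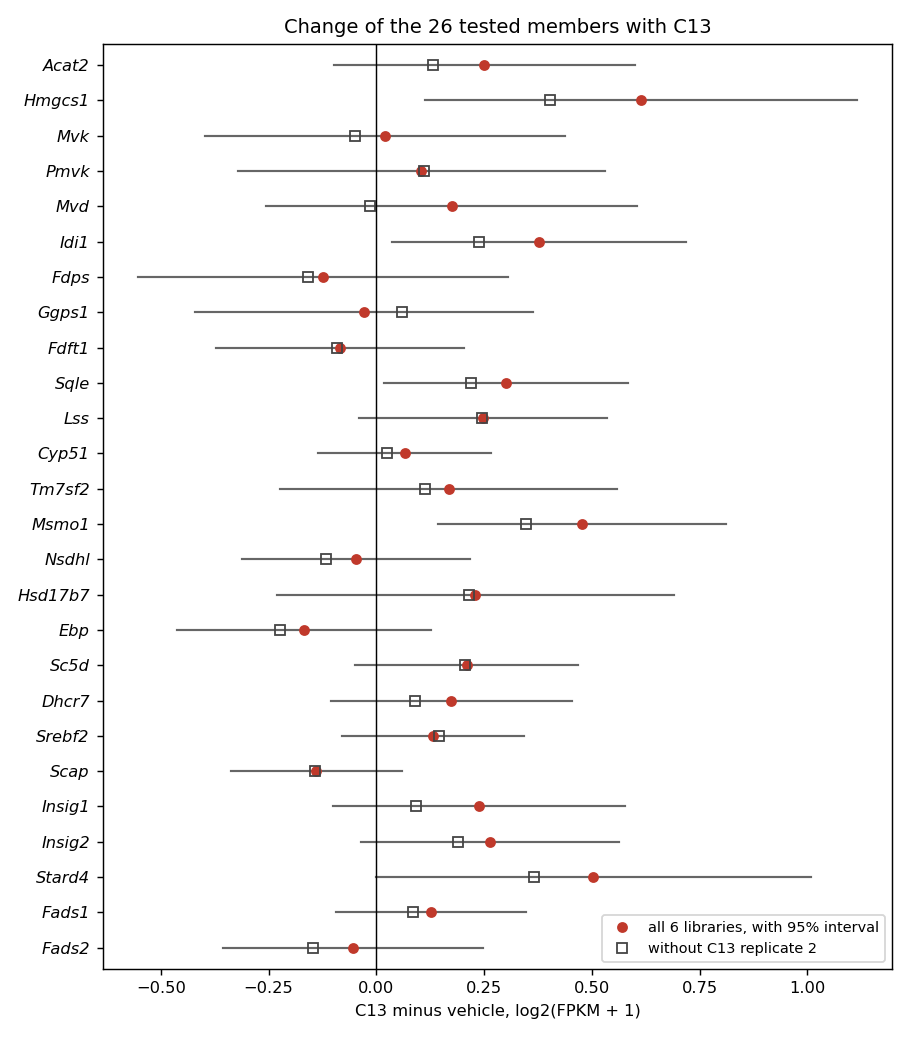
Difference between C13 and vehicle in log2(FPKM + 1) for the 26 tested genes, as red points with 95% intervals from limma over all 6 libraries, and as open squares without C13 replicate 2. The intervals of Hmgcs1, Idi1, Sqle and Msmo1 lie above 0, and the change of Hmgcs1 moves to 0.40 without C13 replicate 2.

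The control genes differed in the order of the libraries. Insig1 (chr5:28071412-28078662), itself a target of SREBP2 whose product closes the feedback loop, had 7.80, 11.9 and 9.32 FPKM with C13, against 7.98, 7.86 and 7.97 FPKM with vehicle. The vehicle libraries were nearly equal, C13 replicate 1 lay just below them, and C13 replicates 2 and 3 lay above them. The change was 0.24 (SE 0.14, 95% interval -0.10 to 0.58, limma adjusted p = 0.804) with all libraries, and 0.09 without C13 replicate 2. Insig2, the second sensor, had 11.8, 12.5 and 9.56 FPKM with C13, against 9.94, 8.17 and 9.56 FPKM with vehicle. Here C13 replicates 1 and 2 lay above the vehicle libraries and C13 replicate 3 among them, another order of libraries than in Insig1.

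Srebf2 (chr15:82147269-82204960), the gene of SREBP2, had 26.7, 26.3 and 27.5 FPKM with C13, against 26.3, 22.2 and 24.9 FPKM with vehicle. The groups did not overlap by a narrow margin, since C13 replicate 2 and vehicle replicate 1 were almost equal, and Srebf2 was not highest in C13 replicate 2. The change was 0.13 (SE 0.09, limma adjusted p = 0.821), and 0.067 without vehicle replicate 2. Scap, the escort of SREBP2, had 16.0, 15.3 and 14.5 FPKM with C13, against 16.3, 17.7 and 16.7 FPKM with vehicle. All C13 libraries lay below all vehicle libraries, with a change of -0.14 (SE 0.08, 95% interval -0.34 to 0.06, limma adjusted p = 0.804). After rescaling to TPM the change of Scap was -0.012, but the median of all genes was 0.13 on that scale. These values are of RNA, while SREBP2 activity is set largely by processing of the protein, which was not measured.

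Stard4, a soluble sterol carrier gene induced when sterols are low, had 1.11, 2.16 and 1.68 FPKM with C13, against 1.21, 0.425 and 0.981 FPKM with vehicle. The groups overlapped by C13 replicate 1, and the change was 0.50 (SE 0.21, 95% interval -0.001 to 1.01, limma adjusted p = 0.678). That size depends on the pseudocount, being 0.90 with a pseudocount of 0.1 and 0.18 with a pseudocount of 5. At this depth the lowest value rests on about 23.3 fragments, with a counting error of about 20.7%, and the change was 0.37 without C13 replicate 2 and 0.32 without vehicle replicate 2. Lpin1, a phosphatidate phosphatase gene activated by SREBP proteins, had 0.551, 0.889 and 0.516 FPKM with C13, against 0.498, 0.339 and 0.374 FPKM with vehicle. These values rest on about 20.4 to 57.1 fragments a library; the groups did not overlap, but C13 replicate 3 and vehicle replicate 1 differed by less than the counting error of about 22.2% at the lowest value. With no filter on low values its change was 0.23 (SE 0.10, limma adjusted p = 0.736). The fatty acid desaturase genes Fads1 and Fads2 averaged 20.0 ± 1.63 and 22.2 ± 2.97 FPKM with C13, against 18.2 ± 0.960 and 23.1 ± 2.63 FPKM with vehicle (SD, n = 3 each).

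In level, per transcript length, the set spanned from a mean of 0.528 FPKM for Lpin1 to 41.9 FPKM for Fdps. Fdps was followed by Srebf2 (25.6 FPKM), Fads2 (22.7 FPKM), Fads1 (19.1 FPKM) and Cyp51 (18.6 FPKM), and the lowest enzyme of the sterol route was Lss (1.96 FPKM). The order is coarse, since the ranges over the 6 libraries were separate in 2 of 26 neighbouring pairs, Fdps above Srebf2 and Tm7sf2 above Lss.

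Vehicle replicate 2 split the set in shares near those of all genes tested, so the split is not particular to the set. The genes on either side differed in median transcript length, with exceptions both ways. This library was the highest vehicle library in 12 of the 26 genes (46.15%) and the lowest in 10 (38.46%), against 47.2% and 43.0% of all genes tested. The longest annotated transcripts of the 12 genes had a median of 2961 nt and a GC content of 51.4%, against 3698 nt and 45.0% for the 10 genes in which it was lowest. The 4 genes in which it lay in the middle had a median of 3641 nt and a GC content of 47.2%. Over all genes tested with an annotated length the medians were 2381 nt and 52.8% GC where it was highest. Where it was lowest they were 4650 nt and 46.5% GC. On the log2(FPKM + 1) scale vehicle replicate 2 lay 0.67 above the mean of the other two vehicle libraries in Fdps, 0.60 above it in Mvk and 0.44 above it in Pmvk. In Hsd17b7, Stard4, Ggps1 and Hmgcs1 it differed from them by -0.69, -0.56, -0.53 and -0.45. Without that library the median change of the set was 0.19, with 21 of 26 genes above 0, with 5 having an unadjusted p under 0.05 on the higher side (against 6.23% of all genes) and 0 on the lower side (against 10.6%). None of the 26 passed the adjusted threshold there, which 0.412% of all genes passed as higher and 1.07% as lower.

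**Figure D4:**
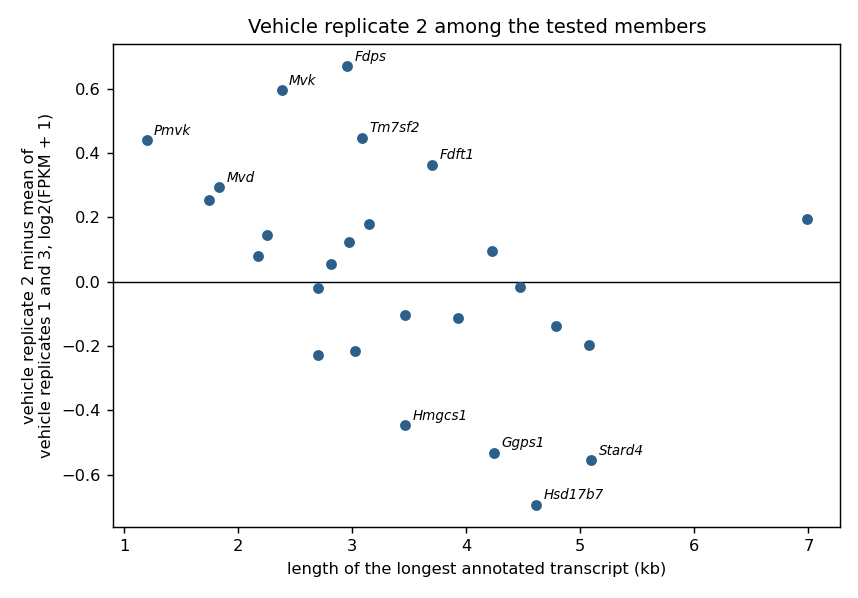
Each point is 1 of the 26 tested genes, with the length of its longest annotated transcript in kb on the x axis and, on the y axis, vehicle replicate 2 minus the mean of vehicle replicates 1 and 3 in log2(FPKM + 1). Pmvk, the shortest, is at 0.44 and the long Stard4 and Hsd17b7 are at -0.56 and -0.69, but the spread is wide: Insig2 (2697 nt) is at -0.23, Idi1 (3027 nt) at -0.22, Fdft1 (3698 nt) at 0.36, Scap (4227 nt) at 0.09 and Lss, the longest, at 0.19.

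Genes of fatty acid synthesis, which SREBP proteins share with the sterol route, lay higher as well, and none passed. Of 14 genes tested 13 had a change above 0, with a median of 0.25, and an unadjusted p under 0.05 was reached by 7 on the higher side (against 2.57% of all genes) and 0 on the lower (against 4.77%). Every C13 library lay above every vehicle library in 9 of the 14 (against 6.83% of all genes), and in 9 without C13 replicate 2 (against 11.0%), when the median was 0.18. The count of 7 was 1 without C13 replicate 2 (against 1.24% of all genes), 2 without C13 replicate 3 (against 1.28% of all genes), 3 without vehicle replicate 3 (against 2.02%) and 4 without C13 replicate 1 (against 1.95%). Scd2, a stearoyl-CoA desaturase gene, had 20.4, 30.3 and 22.6 FPKM with C13, against 17.7, 12.4 and 16.7 FPKM with vehicle (change 0.61, SE 0.18, limma adjusted p = 0.497). The change of Scd2 was 0.45 without C13 replicate 2 and 0.47 without vehicle replicate 2. Acsl3, which activates fatty acids, had 2.45, 3.45 and 2.94 FPKM with C13, against 2.02, 1.86 and 2.11 FPKM with vehicle (change 0.39, or 0.18 with a pseudocount of 5, SE 0.13, adjusted p = 0.549). Me1, the malic enzyme gene, which supplies NADPH and is also a target of the antioxidant factor NRF2, had 24.6, 25.8 and 25.9 FPKM with C13, against 23.4, 19.4 and 21.3 FPKM with vehicle (change 0.24, SE 0.09, adjusted p = 0.63). In Scd2 and Acsl3 C13 replicate 2 was the highest library, as in the sterol enzymes, and in Me1 it was not. The mean deviation of the 14 genes was 0.15, 0.39 and 0.20 in C13 replicates 1, 2 and 3, against 0.06, -0.12 and 0.06 in the vehicle libraries.

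Factors that process SREBP proteins or turn over the sterol machinery showed smaller differences. Of 10 tested 8 had a change above 0, with a median of 0.08, and 0 passed. An unadjusted p under 0.05 was reached by 0, against 2.57% of all genes on the higher side and 4.77% on the lower. With 10 genes a count of 0 is near these shares. Every C13 library lay above every vehicle library in 2 of the 10, Rnf145 and Pgrmc1 (against 6.83% of all genes). Rnf145 averaged 23.7 ± 1.10 FPKM with C13 and 20.5 ± 3.24 FPKM with vehicle, Pgrmc1 105 ± 4.30 FPKM with C13 and 95.9 ± 4.06 FPKM with vehicle, and Erlin1 11.6 ± 0.273 FPKM with C13 and 10.7 ± 0.546 FPKM with vehicle (SD, n = 3 each). The median of these 10 genes was -0.005 without vehicle replicate 2. Of 5 tested other sterol enzymes and electron donors 3 had a change above 0, with a median of 0.03. Here too 0 had an unadjusted p under 0.05, against the same shares of all genes. Cyb5r3, which passes electrons to sterol oxidases, averaged 149 ± 4.74 FPKM with C13 and 162 ± 21.7 FPKM with vehicle.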

How the data were processed

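Total RNA of 6 samples was sequenced, and the authors deposited FPKM values for 24340 genes in a table of all samples. Reads were aligned to mm10 with TopHat2 2.1.0 and expression was estimated with Cufflinks, per the submitters' processing notes. Neither the annotation nor the Cufflinks version nor the use of strand is stated there. FPKM already corrects for length and depth, and its lowest value, 0.01, was listed in every library for 6808 genes. Groups and replicate numbers come from the sample titles. Genes that averaged 1 FPKM or more were tested on log2(FPKM + 1), which understates changes of low genes, with limma 3.58.1 in R 4.3.3 (two-sided, intensity trend, Benjamini-Hochberg adjustment over 11412 genes, threshold 0.05). On simulated data with 200 changed genes, the C13 against vehicle fit over 11412 genes recovered 91.5%, 73.3% and 30.3% of those raised by 1.5, 1 and 0.5 log2 units. Of those lowered by as much it recovered 88.2%, 70% and 23%. The simulated noise was independent between genes, without shifts shared across a library, so these shares may not hold for the measured libraries. Fragment numbers are estimates, and errors from them cover counting error only.

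The members and lists were chosen with earlier results of these data known. Members are all named, and in each other list the genes with the smallest p were named by a fixed rule; some genes that the rule takes are not reported here. Neither the set's direction nor the larger share of C13 replicate 2 in it is therefore independent evidence. Alternatives covered the pseudocount, filters, quantile normalization, rescaling to TPM, replicate blocks, array weights, the trend and leaving out each library; leaving out both C13 replicate 2 and vehicle replicate 2 was added after the data were seen.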

Additional observations from a re-analysis of the deposited data

How the results depend on the processing

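No gene of the set passed limma's adjusted threshold under any alternative, including each library left out. Over all genes the 0 higher and 0 lower became 7 and 0 with quantile normalization, 2 and 0 after rescaling to TPM, 18 and 24 with array weights (whose estimate stopped before converging), 1 and 0 without the intensity trend, 16 and 2 without both C13 replicate 2 and vehicle replicate 2, and 0 to 47 higher and 0 to 122 lower with single libraries left out, the most without vehicle replicate 2; the cause was not tested. Rescaling to TPM moved the median of all genes to 0.13 and that of the set to 0.31. That rescaling divides each library by its summed FPKM, which was 634451 in vehicle replicate 2 and 504674 to 534757 in the other libraries. The set's median change was 0.10 to 0.21 with single libraries left out and 0.10 without both. In the set, 7 genes were higher at an unadjusted p under 0.05 without C13 replicate 1, 1 without C13 replicate 2 and 2 without both, and the 5 genes whose C13 libraries all lay above the vehicle libraries became 12 without C13 replicate 1 (against 10.5% of all genes), 11 without vehicle replicate 1 (against 12.9%), 8 without vehicle replicate 2 (against 15.3%) and 8 without both (against 21.0%). Some small changes took the other sign. With quantile normalization Mvk was at -0.0081 and Cyb5r3 at 0.0090. After rescaling to TPM, Fdps was at 0.010, Ggps1 at 0.10, Fdft1 at 0.045, Nsdhl at 0.076, Fads2 at 0.077, Cyb5r3 at 0.023 and Coq2 at 0.024. With array weights Fdps was at 0.042, Nsdhl at 0.013 and Fads2 at 0.020. With single libraries left out, Mvk spanned -0.083 to 0.22, Pmvk -0.068 to 0.25, Mvd -0.015 to 0.29, Ggps1 -0.21 to 0.074, Fdps -0.24 to 0.10, Fdft1 -0.17 to 0.037, Nsdhl -0.12 to 0.019, Hsd17b7 -0.0013 to 0.37, Fads2 -0.15 to 0.036 and Abca1 -0.0019 to 0.62. Replicate numbers in the titles gave correlations of deviations of 0.09, 0.13 and 0.10 between same-numbered libraries, so they were taken as sharing only a number, although each library correlated best with its own. The replicate block by those numbers gave 0 higher and 0 lower genes and a median of 0.17. The replicate block by the other numbers in the labels, over 4 libraries, gave 5 higher and 3 lower genes, none of the set, with Fdps at 0.11, Fdft1 at 0.014, Nsdhl at 0.046, Fads2 at 0.0087, Cyb5r3 at 0.016 and Abca1 at -0.041. Depth limits Stard4 and Lpin1 most.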

Other observations

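Genes of the oxysterol arm, which answers high rather than low sterol, differed among themselves, and none passed. Ch25h, which makes an oxysterol that restrains SREBP2 and is strongly induced by LPS in macrophages, had 647, 567 and 551 FPKM with C13, against 731, 738 and 752 FPKM with vehicle. Every C13 library lay below every vehicle library, with a change of -0.33 (SE 0.10, limma adjusted p = 0.495). The change of Ch25h was -0.19 with quantile normalization. It was -0.20 after rescaling to TPM, where the median of all genes was 0.13. Abcg1, a sterol efflux transporter gene, had 1.47, 1.37 and 1.26 FPKM with C13, against 1.69, 1.68 and 2.11 FPKM with vehicle, again without overlap (change -0.25, SE 0.11, limma adjusted p = 0.705), with -0.39 at a pseudocount of 0.1 and -0.10 at a pseudocount of 5. Abca1, another efflux transporter gene, had 16.3, 13.9 and 16.0 FPKM with C13, against 15.5, 5.96 and 15.3 FPKM with vehicle. Vehicle replicate 2 alone was low there, and the change of Abca1 was 0.41 with it and -0.0019 without it. Of the 6 genes tested in the arm, 2 had a change above 0, with a median of -0.06.

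The branches that take isoprenoids to ubiquinone, dolichol and protein prenylation showed small differences. Of 13 genes tested 7 had a change above 0, the median was 0.01, and 0 passed. An unadjusted p under 0.05 was reached by 0, against 2.57% of all genes on the higher side and 4.77% on the lower. With 13 genes a count of 0 is near these shares. Pdss1 averaged 4.22 ± 0.882 FPKM with C13 and 5.16 ± 0.903 FPKM with vehicle, Icmt 12.98 ± 0.790 FPKM with C13 and 11.9 ± 0.723 FPKM with vehicle, and Coq2 14.8 ± 0.369 FPKM with C13 and 16.0 ± 1.16 FPKM with vehicle (SD, n = 3 each). Of 11 genes tested for sterol uptake, storage and transport 7 had a change above 0, with a median of 0.11 that was 0.01 without vehicle replicate 2. Osbpl2, an oxysterol-binding protein gene, averaged 9.59 ± 0.410 FPKM with C13 and 8.40 ± 0.505 FPKM with vehicle. Stard3, a late endosomal sterol transporter gene, averaged 38.0 ± 1.09 FPKM with C13 and 42.6 ± 3.59 FPKM with vehicle (SD, n = 3 each).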
